A study of Mus musculus with 4 samples.

Results

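Oxidative phosphorylation is the mitochondrial pathway that turns the energy of nutrients into ATP. Complexes I and II pass electrons to ubiquinone, complex III hands them on to cytochrome c, complex IV gives them to oxygen, and ATP synthase uses the proton gradient that complexes I, III and IV build. Its subunits come from separate genomes: a core set is encoded on mitochondrial DNA and the rest in the nucleus. Neurons depend on this pathway heavily, and its transcripts are among the most abundant in brain RNA.

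The genes were chosen by symbol: mitochondrial mt-Nd, mt-Co, mt-Atp and mt-Cytb, and nuclear Nduf, Uqcr, Cox4 to Cox8, Atp5 and Sdha to Sdhd. This gave 107 of the 32285 genes counted, 13 mitochondrially encoded and 94 nuclear-encoded. The nuclear genes comprised 37 of complex I, 8 of complex I assembly (the Ndufaf factors), 4 of complex II, 8 of complex III, 20 of complex IV and 17 of ATP synthase. Ndufa4 and Ndufa4l2 carry complex I names but are counted here with complex IV, where NDUFA4 is now placed. The mitochondrial genes comprised 7 of complex I, 1 of complex III, 3 of complex IV and 2 of ATP synthase.

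Transcripts were counted by Visium, in which a fresh frozen brain slice is laid over barcoded spots, each covering a small patch that can hold several cells. Photothrombotic (PT) injury, made with Rose Bengal and light over the somatosensory cortex, was studied in 8 mice on the C57BL/6 background, adults of both sexes whose individual ages the labels do not give, with 1 slice each on 4 capture areas of 2 slices. Wild-type slices came from 1 mouse at rest and, in days post injury (dpi), 1 at 2 dpi, 2 at 7 dpi and 2 at 21 dpi. A further 2 slices at 21 dpi came from Cthrc1(creER); R26(DTA) mice, called deleter mice, in which tamoxifen is meant to trigger the death of Cthrc1-expressing fibroblasts. The study set these deleter slices aside because no deletion could be detected. Rest and 2 dpi shared a capture area, and which of its slices was which was taken from the tissue outlines in the study's own plot, since the labels do not say. The other 3 areas held 1 group each, so time or genotype and capture area cannot be told apart. Slices had 827 to 1726 spots, 11332780 to 23677298 unique molecular identifiers (UMIs) and medians of 12447 to 16158 UMIs per spot, except the slice at 2 dpi, whose median was 2633.5. Levels are given below as UMIs per 10000 UMIs of the same spots. Each UMI marks 1 captured transcript end, so no length correction was made, and a smaller share cannot tell fewer cells of a type from less RNA per cell. The defining markers of brain tissue were present in every slice: the summed level of 8 markers of neurons lay between 39.3 and 72.9 per 10000 over the whole slices.

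Mitochondrially encoded transcripts made up a large and variable part of each slice. Over whole slices they reached 1442 per 10000 at rest, 1166 at 2 dpi, 929 and 991 at 7 dpi, 1104 and 1088 at 21 dpi, and 1324 and 1543 in deleter slices. Nuclear-encoded members reached 483 at rest, 431 at 2 dpi, 370 and 348 at 7 dpi, 371 and 330 at 21 dpi, and 327 and 337 in deleter slices. The slice at rest was thus the highest of the wild-type slices for both groups. The gene groups did not move together across the injured slices: the 7 dpi slices were the lowest for mitochondrial transcripts, whereas the nuclear ranges at 7 and 21 dpi overlapped. The number of mitochondrial UMIs per nuclear-encoded member UMI was 2.99 at rest, 2.71 at 2 dpi, 2.51 and 2.85 at 7 dpi, 2.98 and 3.30 at 21 dpi, and 4.04 and 4.58 in deleter slices.

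Within the injured slices, spots with much Col1a1, the collagen gene that marks fibroblasts, were compared with spots without it, to ask how the respiratory chain genes were expressed where fibroblasts had gathered. Spots with at least 5 Col1a1 UMIs per 10000 were called Col1a1-high and spots with no Col1a1 UMI Col1a1-free, and UMIs were summed per class and slice. Col1a1-high spots numbered 112 and 392 at 7 dpi and, in wild-type mice, 170 and 203 at 21 dpi, against 413, 228, 638 and 283 Col1a1-free spots. Depth differed between the classes, with median UMIs per spot of 4923.5, 9206.5, 10828 and 13879 in Col1a1-high and 16149, 17361.5, 11718 and 11061 in Col1a1-free spots. With spots of at least 5000 UMIs alone, 75 nuclear-encoded and 11 mitochondrial members were lower in edgeR, close to the counts given below for all spots. The share of all genes called at this floor is not given, so these counts do not show whether the members stood out there. This floor did not match the depth of the classes at 7 dpi. In 7 dpi slice 1 the 54 Col1a1-high spots left held 643062 UMIs and the 381 Col1a1-free ones 7012046. In slice 2 the 335 and 226 spots left held 4159567 and 3896565.

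Both gene groups were lower in Col1a1-high spots. The nuclear-encoded members summed to 265 and 271 per 10000 in Col1a1-high spots against 400 and 398 in Col1a1-free spots at 7 dpi, and to 241 and 235 against 412 and 392 at 21 dpi. The mitochondrial members summed to 641 and 734 against 966 and 1160 at 7 dpi, and to 763 and 671 against 1206 and 1317 at 21 dpi. In these 4 slices no Col1a1-high value reached any Col1a1-free value in either group. The deleter slices gave the same order, with 224 and 234 against 390 and 368 for nuclear and 889 and 1010 against 1655 and 1591 for mitochondrial members. Few spots were Col1a1-high earlier, 3 at rest and 26 at 2 dpi. In them the nuclear-encoded members were also lower, at 325 against 484 at rest and 348 against 429 at 2 dpi. The mitochondrial members were higher, at 1643 (exact Poisson interval 1590 to 1697) against 1437 at rest and 1231 (1202 to 1260) against 1169 at 2 dpi, with no test. These early Col1a1-high spots were shallower, holding 22228 UMIs in all at rest and 56316 at 2 dpi. The Col1a1-free spots, 973 at rest and 1641 at 2 dpi, held 15846283 and 12110110. In a shallow spot very few Col1a1 UMIs reach the threshold, so where Col1a1 is rare the class itself favours shallow spots. At 2 dpi all spots of 1000 to under 5000 UMIs had a mitochondrial share of 1544 and a nuclear-encoded share of 388. The part of depth was not tested.

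**Figure D1:**
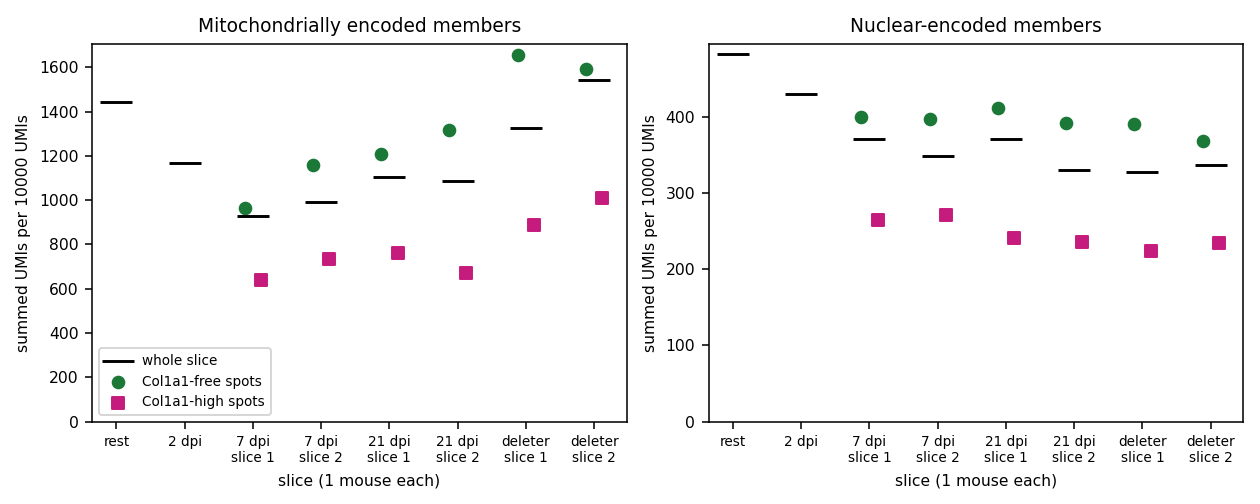
Summed UMIs of the mitochondrially encoded (left) and nuclear-encoded (right) members per 10000 UMIs, in each of the 8 slices. Black bars are whole slices; green circles (Col1a1-free spots) and magenta squares (Col1a1-high spots) are drawn for the 6 slices at 7 and 21 dpi, deleter slices included, with no error bar. In these 6 slices every square lies below its circle, from 641 against 966 for mitochondrial members in 7 dpi slice 1 to 671 against 1317 in 21 dpi slice 2.

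In the edgeR quasi-likelihood test over the 4 wild-type slices, with the slice as a block, 28.3% of the 13306 genes tested were lower in Col1a1-high spots and 28.8% were higher at an adjusted p under 0.05. Of the mitochondrial members, 11 of 13 were lower and 0 higher, with a median log2 fold change of -0.67. Of the nuclear-encoded members, 92 of 94 passed the filter on low counts, and 76 were lower, 4 higher and 12 not called, with a median of -0.57. The median over all genes tested was -0.00033. The scaling between samples (TMM) largely holds such all-gene medians near 0 in each edgeR comparison. The members that missed the filter were Cox7b2 and Cox8c, isoforms known from testis. DESeq2 called 11 mitochondrial and 68 nuclear-encoded members lower and 2 nuclear-encoded members higher. The shares of all genes above are from edgeR and do not apply to these DESeq2 counts. The DESeq2 shares are not given, so its counts do not show whether the members stood out with that tool.

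Complex I, which takes electrons from NADH, had 33 of its 37 nuclear genes lower and 0 higher, and their median log2 fold change was -0.58. These genes include Ndufb1-ps, which the gene annotation lists as a non-coding RNA. Ndufs1, the large iron-sulphur subunit of the matrix arm, stood at 1.25, 1.29, 1.48 and 1.43 per 10000 in Col1a1-free spots (7 dpi slices, then 21 dpi slices) and at 0.661, 0.681, 0.738 and 0.669 in Col1a1-high spots. The levels did not overlap, and Ndufs1 fell by 0.91 on the log2 scale (SE 0.11, edgeR adjusted p = 0.000529). Ndufv1, which holds the NADH site, fell by 0.78 (SE 0.11). Ndufa5, an accessory subunit of the matrix arm, was among the 5 nuclear-encoded members with the largest fall. Its levels were 4.56, 4.14, 4.53 and 3.99 in Col1a1-free spots against 2.00, 2.18, 1.76 and 1.80 in Col1a1-high spots, a fold change of 0.472 (edgeR adjusted p = 0.000367). Ndufb9, of the membrane arm, had a fold change of 0.524. The 4 subunits that were not called, Ndufa2, Ndufa7, Ndufb7 and Ndufv3, had log2 fold changes between -0.12 and 0.02.

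The Ndufaf assembly factors are not part of the finished complex, and 6 of 8 were lower with a median of -0.52. Ndufaf5, an enzyme that modifies a subunit during early assembly, had the largest fall of all nuclear-encoded members. Its levels were 0.332, 0.343, 0.424 and 0.406 per 10000 in Col1a1-free spots and 0.142, 0.166, 0.161 and 0.193 in Col1a1-high spots (log2 fold change -1.10, SE 0.14, edgeR adjusted p = 0.000721). Ndufaf8 had a log2 fold change of -0.00031.

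Complex II, the 4-subunit enzyme that also belongs to the citric acid cycle, was split. Sdha, its catalytic flavoprotein, fell by 0.65 on the log2 scale (SE 0.10) and Sdhb, its iron-sulphur subunit, fell by 0.32 (SE 0.11). Sdhc, a membrane anchor, was higher in the Col1a1-high spots of all 4 slices, at 1.30, 1.30, 1.22 and 1.26 per 10000 against 1.19, 1.07, 1.12 and 0.984. The log2 fold change of Sdhc was 0.30 (SE 0.10, edgeR adjusted p = 0.0413), and DESeq2 did not call it. The other anchor, Sdhd, had a log2 fold change of -0.17 (SE 0.11) and was not called. All 8 complex III genes that the symbol rule takes in, those named Uqcr, were lower, with a median of -0.56. Nuclear subunits of complex III under other names were not examined. Uqcrfs1, the Rieske iron-sulphur protein, fell by 0.77 and Uqcrc1, a core subunit, by 0.56.

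Complex IV held both the lowest median, -0.72, and the members with the largest rises. Of its 18 tested nuclear genes 12 were lower, 2 were higher and 4 were not called. Ndufa4 (chromosome 6, 11900292 to 11907497, mm10) stood at 14.7, 15.5, 16.7 and 15.2 per 10000 in Col1a1-free spots and at 7.38, 7.59, 7.39 and 6.46 in Col1a1-high spots, a fold change of 0.488 (edgeR adjusted p = 0.000294). Its paralog Ndufa4l2 (chromosome 10, 127514967 to 127517154), which is known to be induced in low oxygen and to occur in pericytes, went the other way. Ndufa4l2 stood at 0.0549, 0.0743, 0.0449 and 0.0515 per 10000 in Col1a1-free spots and at 0.224, 0.187, 0.0894 and 0.0876 in Col1a1-high spots, a fold change of 2.57 (edgeR adjusted p = 0.00435). Its counts were small, from 17 to 82 UMIs per class and slice. Of 6 markers of pericytes and smooth muscle 5 were also higher in Col1a1-high spots, and their part in the rise of Ndufa4l2 was not tested. The largest rises were those of Acta2 (log2 fold change 3.11), which the study also uses to mark myofibroblasts, and Pdgfrb (2.85). Abcc9 rose by 0.70, and Kcnj8 was not called (edgeR adjusted p = 0.0685). Cox6b2 (chromosome 7, 4751792 to 4753094), the form of subunit 6b known from testis, rose 2.94-fold (edgeR adjusted p = 0.00462), from 0.114, 0.0589, 0.0686 and 0.0333 per 10000 to 0.142, 0.223, 0.188 and 0.158, with 11 to 98 UMIs per class and slice. In 7 dpi slice 1, its Col1a1-high level rested on 12 UMIs. The common form Cox6b1 fell by 0.53 (SE 0.12).

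The other isoform pairs of complex IV were dominated by the form known from most tissues. Cox4i1 fell by 0.48 (SE 0.10), whereas Cox4i2, the form tied to low oxygen, had a log2 fold change of 0.34 (SE 0.33, edgeR adjusted p = 0.415) on 2 to 38 UMIs per class and slice. Cox6a1 and the heart and muscle form Cox6a2 both fell, by 0.70 and 0.75. Cox7a2 fell by 0.81 and Cox8a by 0.76, while the muscle forms Cox7a1 (-0.01, SE 0.20) and Cox8b (-0.90, SE 0.78) were not called. Cox5a, which is present in every complex IV, fell by 0.81 (SE 0.12).

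ATP synthase had 15 of 17 nuclear members lower. Its catalytic subunits Atp5b and Atp5a1 fell by 0.81 and 0.63 on the log2 scale (SE 0.10 each). Atp5md, a small subunit of the membrane part, fell from 12.3, 9.54, 10.6 and 8.08 per 10000 to 5.93, 4.78, 4.07 and 3.61, a fold change of 0.476 (edgeR adjusted p = 0.000322). Atp5e, the epsilon subunit of the central stalk, had a log2 fold change of -0.04 (SE 0.09). The proton-conducting ring is made of subunit c, which 3 nuclear genes encode as identical mature proteins with different import sequences. Atp5g1 fell by 0.75 (SE 0.12) and Atp5g3 by 0.68 (SE 0.11). Atp5g2 was instead higher in all 4 slices, at 2.44, 3.02, 2.40 and 2.72 per 10000 in Col1a1-high against 2.11, 2.35, 2.27 and 2.41 in Col1a1-free spots (log2 fold change 0.28, SE 0.10, edgeR adjusted p = 0.0469), and DESeq2 did not call it. Sdhc and Atp5g2 kept their call when deleter slices were added and lost it when any 1 of the 4 slices was left out, whereas Cox6b2 and Ndufa4l2 remained called each time.

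**Figure D2:**
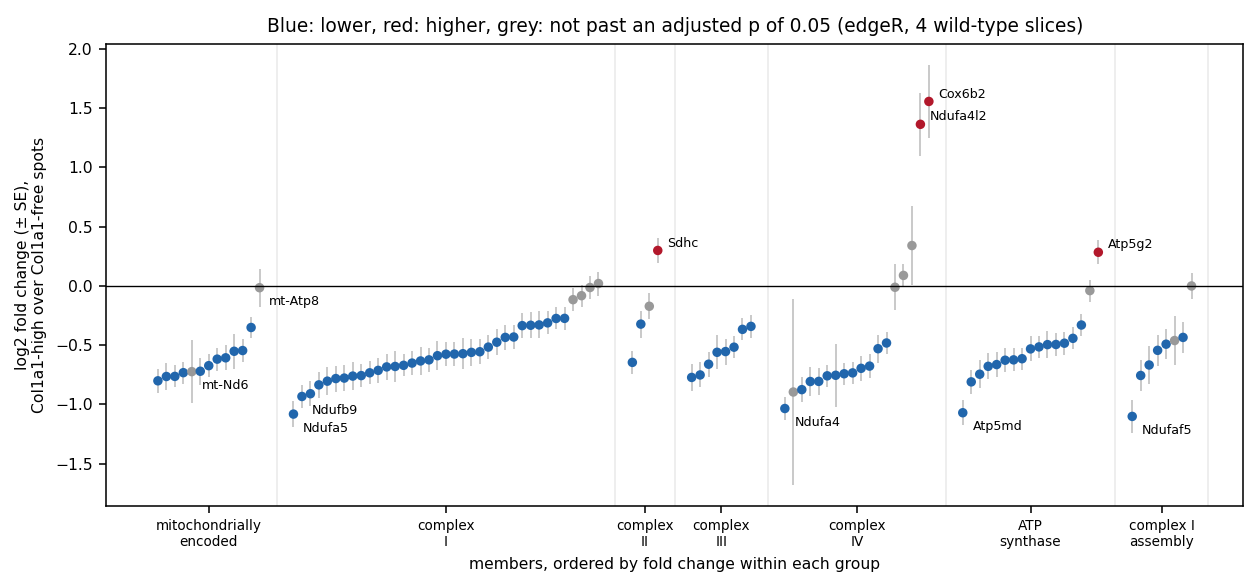
Log2 fold change of each tested member, Col1a1-high over Col1a1-free spots, with its standard error, grouped by complex and ordered by size within each group (y axis log2, x axis rank). Blue points were lower and red points higher at an adjusted p under 0.05 in edgeR over 4 wild-type slices, and grey points were not called; 11 mitochondrial and 76 nuclear-encoded points are blue and 4 nuclear-encoded points are red.

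The promoters of these genes were searched because factors for the respiratory chain bind short DNA words there. RefSeq promoter windows on GRCm38.p6, from 250 bases before to 50 bases after each gene's start, were matched for 77 of the 94 nuclear-encoded members. The NRF1 word GCGCATGCG, searched on either strand and overlapping its own reverse complement, was in the window of 10 of these 77 genes (13.0%) and of 1.95% of all 27025 genes with a window. The YY1 word AAGATGGCG was in 8 (10.4%, against 1.64% of all genes), the ETS word CCGGAAGT in 5 (6.49%, against 4.31%) and the ERR word TCAAGGTCA in 2 (2.60%, against 0.466%). Members with the NRF1 word had a median log2 fold change of -0.57 between the spot classes and the other matched members -0.58. The medians with and without the word were -0.48 and -0.62 for YY1, -0.61 and -0.58 for ETS, and -0.43 and -0.58 for ERR, as descriptions of few genes with no test. The word was thus in the window of Cox6a1, which fell, and of Atp5g2, which rose, and the ERR word in that of Atp5g3. These 30-base stretches before the start are shown 5′ to 3′ on the gene's strand, with the word or its reverse complement in capitals. Cox6a1 lies at chr5:115349101-115349130, minus strand, Atp5g2 at chr15:102671070-102671099, minus strand, and Atp5g3 at chr2:73911359-73911388, minus strand. The Atp5g2 stretch lies before the RefSeq start but inside the span that GENCODE gives the gene, 102662864 to 102672352.
Cox6a1, NRF1 word: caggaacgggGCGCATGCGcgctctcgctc
Atp5g2, NRF1 word: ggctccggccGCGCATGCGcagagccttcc
Atp5g3, ERR word: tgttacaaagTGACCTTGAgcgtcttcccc

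The mitochondrial genes are read from shared polycistronic transcripts, and most moved by similar amounts. mt-Nd2, of complex I, stood at 45.8, 61.8, 67.0 and 67.9 per 10000 in Col1a1-free spots and at 26.9, 34.3, 39.6 and 31.1 in Col1a1-high spots (log2 fold change -0.80, SE 0.10, edgeR adjusted p = 0.00073). mt-Co1, the catalytic subunit of complex IV, stood at 208, 275, 270 and 310 against 142, 168, 162 and 156 (-0.67, SE 0.10). mt-Cytb, the cytochrome b of complex III, fell by 0.73 and mt-Atp6, of the proton channel of ATP synthase, by 0.62. The smallest called fall was that of mt-Nd3, by 0.35 (SE 0.09). mt-Nd6, the member read from the other strand, had a log2 fold change of -0.72 (SE 0.27, edgeR adjusted p = 0.0534) on 2089 UMIs in all 8 slices. mt-Atp8 had one of -0.02 (SE 0.16, edgeR adjusted p = 0.945); its gene, at 7766 to 7969 of the mitochondrial chromosome, overlaps that of mt-Atp6 at 7927 to 8607 on the same strand.

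Cell makeup moved with this comparison. The 8 markers of neurons summed to 12.0 to 19.5 per 10000 in Col1a1-high against 45.5 to 93.3 in Col1a1-free spots of the wild-type slices, and all 8 were lower in the test. The 8 markers of microglia and macrophages summed to 80.0 to 118 against 5.7 to 24.0, and the 5 markers of fibroblasts other than Col1a1, which defined the classes, to 37.8 to 76.1 against 1.09 to 1.22. For correlations over spots of at least 5000 UMIs, the nuclear-encoded and neuron marker shares were taken over UMIs without mitochondrial genes. These shares had a Pearson r of 0.40 in the 986 spots at rest and of 0.58 to 0.82 in the other 7 slices. The r describes spots that share a slice, and both shares have the same total. For the mitochondrial share, taken over all UMIs, the r with that neuron marker share was negative at rest, -0.44, and 0.23 to 0.65 in the other 7 slices.

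Members were therefore also compared between spots of like neuron marker level, taken within the 10th to 90th percentile of the neuron markers of the Col1a1-high spots of the same slice. Of 12085 genes tested, 14.0% were then called lower and 15.2% higher. The edgeR test called 16 nuclear-encoded members lower and 1 higher, Ndufa4l2, with a median log2 fold change of -0.30. It called 8 mitochondrial members lower with a median of -0.62. The 16 came from at most 94 nuclear-encoded members, a share near the 14.0% of all genes called lower. Of the 16, 15 had been lower before, among them Ndufb9, Ndufv1, Ndufs1, Cox6a1 and Cox8a, and the other was Cox8b. The nuclear-encoded sum in 7 dpi slice 2 was then 269 against 276 per 10000, and in the other wild-type slices the sums were 227 to 265 against 299 to 355.9. The remaining Col1a1-free spots were 36 to 176 per slice, still had more neuron marker UMIs (17.1 to 28.7 against 7.6 to 15.9), and held 198 to 293 oligodendrocyte marker UMIs per 10000 (oligodendrocytes list) against 27.5 to 119. The part of these cell markers in the result was not tested.

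Whether the gap changed with time was tested as the class difference at 21 dpi less that at 7 dpi. Of the 14147 genes tested, 3.19% were called higher and 0.82% lower. None of the 105 tested members was called by edgeR or by DESeq2, and at an unadjusted p under 0.05 there were 6 nuclear-encoded members lower and 0 higher (0 and 0 with DESeq2). Over all genes the shares at that threshold were 7.11% lower and 11.4% higher with edgeR, and 2.87% and 6.26% with DESeq2. The median difference was -0.18 for both mitochondrial and nuclear-encoded members, against 0.03 over all genes. In the same test 5 of the 8 markers of neurons were lower and 6 of the 8 markers of microglia and macrophages higher.

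**Figure D3:**
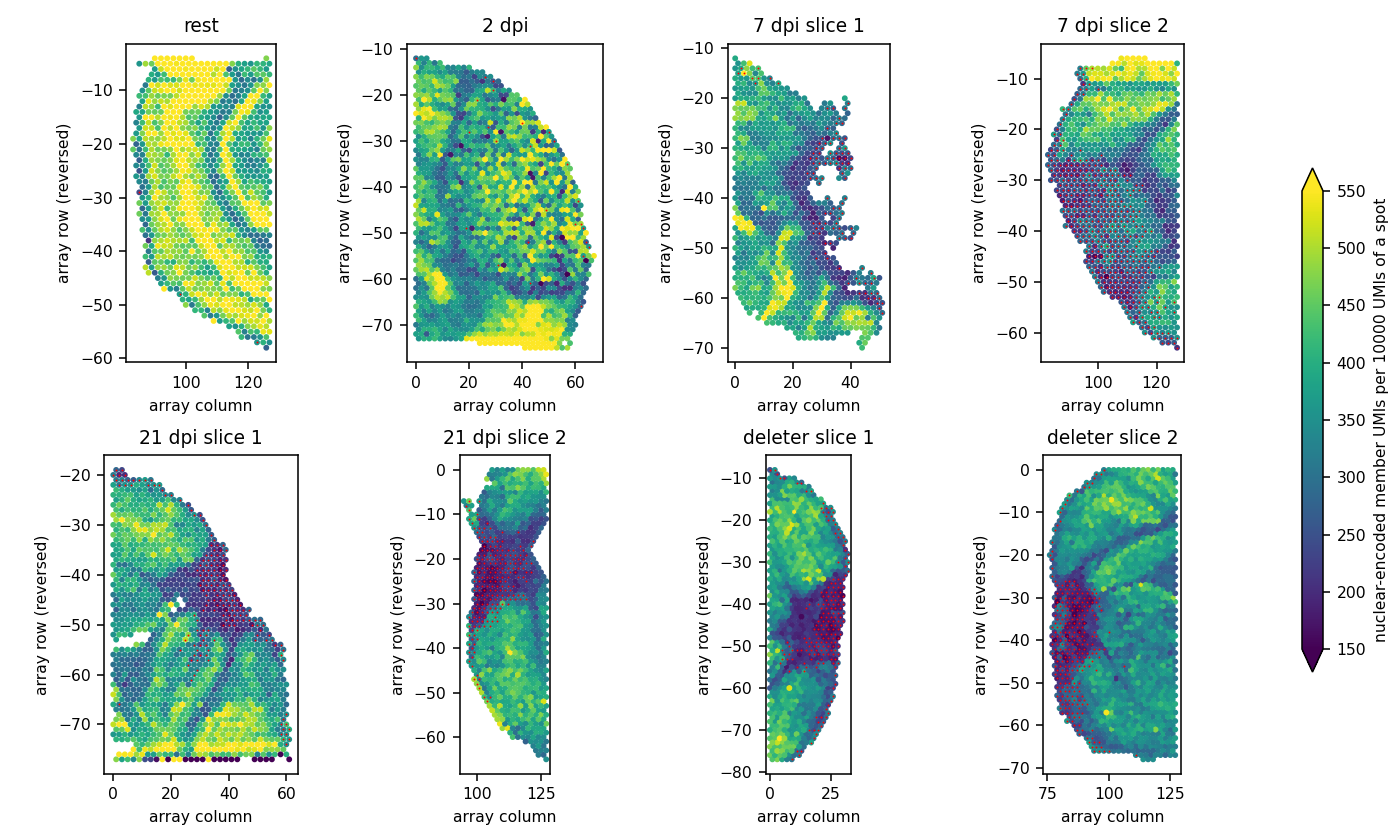
Nuclear-encoded member UMIs per 10000 UMIs in each spot (colour, limited to 150 to 550) at its row and column on the array, in all 8 slices. Small red dots mark Col1a1-high spots, which numbered 3 at rest, 26 at 2 dpi and 112 to 392 later and lie mostly in dark areas of the injured slices at 7 and 21 dpi.

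Over whole slices, the time points and genotypes were compared with 2 slices against 2. Between 7 and 21 dpi, 0.0127% of 15727 genes were called higher at 7 dpi and 0.0254% lower, and 0 of 106 tested members were called by edgeR or DESeq2. At an unadjusted p under 0.05, 3 nuclear-encoded members were higher at 7 dpi and 0 lower with edgeR (2 and 0 with DESeq2), against 8.01% higher and 4.36% lower over all genes (6.29% and 3.4% with DESeq2). The 3 were Cox6a2, Ndufa4l2 and Ndufa2. The 13 mitochondrial members had a median log2 fold change of -0.16, and 9 of them were lower in both 7 dpi slices than in both at 21 dpi. Of all genes tested 25.2% were lower and 20.0% higher at 7 dpi without overlap of the slices.

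Between deleter and wild-type slices at 21 dpi, edgeR called 0.0% of 15708 genes higher and 0.0% lower, and so none of 106 tested members, nor did DESeq2 call any member. All 13 mitochondrial members had log2 fold changes above 0, from 0.27 for mt-Nd6 to 0.61 for mt-Nd2, with a median of 0.46, against 0.001 over all genes. In 10 of 13 both deleter slices lay above both wild-type slices, as did 7.24% of all genes tested, while 28.0% lay below. At an unadjusted p under 0.05 there were 3 with edgeR (mt-Nd2, mt-Nd3 and mt-Nd4) and 10 with DESeq2, all higher. Over all genes the shares were 1.67% higher and 1.7% lower with edgeR, and 1.11% and 0.974% with DESeq2. The mitochondrial genes share their transcripts and are not independent of each other. mt-Nd2 stood at 75.0 and 93.5 per 10000 in deleter and at 61.3 and 55.1 in wild-type slices (SE 0.21, edgeR adjusted p = 0.999). Among the nuclear-encoded members 45 had log2 fold changes above 0 and 48 below, with a median of -0.01. Genotype and capture area coincide here, so their parts cannot be told apart.

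**Figure D4:**
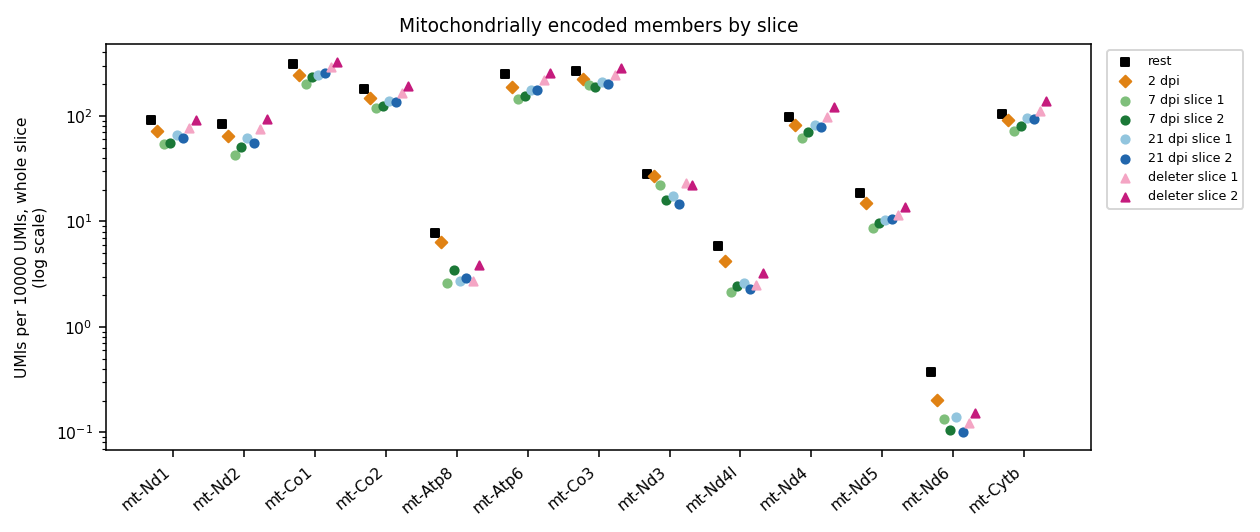
UMIs per 10000 UMIs of each of the 13 mitochondrially encoded members in whole slices (log y axis), with 1 point per slice and no error bar. Deleter slices (triangles) lie above the wild-type 21 dpi slices (blue circles) in 10 of 13 genes, and rest (black squares) lies above 2 dpi (orange diamonds) in all 13.

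The acute phase was examined in the slice at 2 dpi against that at rest, with 1 slice each and therefore no test. Intervals are exact Poisson intervals at the 95% level and cover counting error only. In the slice at 2 dpi 21.7% of spots held fewer than 1000 UMIs, against 0.295% at rest, so spots of like depth were compared first. In spots of at least 5000 UMIs (715 at 2 dpi, 986 at rest), mitochondrial members summed to 1110 per 10000 (1108 to 1112) at 2 dpi and 1437 (1435 to 1439) at rest. Nuclear-encoded members summed to 437 (436 to 438) and 484 (483 to 485). Of 11445 genes with at least 50 UMIs in both, 10.2% were at least 1.5-fold lower and 15.6% at least 1.5-fold higher at 2 dpi. All 13 mitochondrial members were lower, 3 of them at least 1.5-fold, with a median log2 ratio of -0.40. Of 91 nuclear-encoded members with enough UMIs, 68 were lower and 23 higher, but only 1 and 2 by 1.5-fold, with a median of -0.14 against 0.02 over all genes. Of the 11445 genes, 5567 were lower and 5878 higher.

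By complex, the median log2 ratio of nuclear-encoded members was -0.25 for complex IV, -0.16 for complex I, -0.05 for complex II, -0.04 for ATP synthase and -0.03 for complex III. The nuclear-encoded members furthest down were Cox6a2 (0.237 per 10000 at rest, 0.111 at 2 dpi), Ndufa5 (5.82, 4.10), Ndufb4 (5.93, 4.31), Cox4i2 (0.0597, 0.0442) and Ndufb3 (2.91, 2.21). Those furthest up were Cox6b2 (0.0345 at rest, 0.205 at 2 dpi), Cox7a1 (0.103, 0.179), Sdhc (1.07, 1.41), Atp5g2 (2.35, 2.95) and Atp5e (8.51, 10.3). Cox4i2 at 2 dpi and Cox6b2 at rest lay only just above the minimum of 50 UMIs, so their ratios carry a large counting error. Cox6b2, Sdhc and Atp5g2, which were higher in Col1a1-high spots later, were thus also among the 5 furthest up at 2 dpi. Ndufa4l2, the remaining member called higher later, was not. Ndufa5 was among the 5 furthest down in both, whereas Ndufaf5, Atp5md, Ndufa4 and Ndufb9 were so only between the spot classes. Cox8b fell under the minimum at rest, with 44 UMIs there and 888 in the whole slice at 2 dpi, and 864 of the latter were in spots of at least 5000 UMIs. The 8 markers of neurons summed to 40.6 per 10000 at 2 dpi and 73.3 at rest in these spots, and the 8 of microglia and macrophages to 7.7 and 2.7. The 4 markers of red cells summed to 1.6 and 18.8. Markers of oligodendrocytes were higher at 2 dpi in 6 of 6 (median log2 ratio 0.36) and of endothelial cells in 4 of 4 (0.55). Of those for astrocytes 4 were higher and 2 lower (0.59), and for pericytes and smooth muscle 3 and 1 (0.25). All 4 markers of fibroblasts with enough UMIs were higher (1.20). The brain regions that these slices cover were not compared. The part of these cells in the differences was not tested.

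The shallow spots at 2 dpi differed from the deep ones in opposite directions for the gene groups. Mitochondrial members summed to 1544 per 10000 (1537 to 1551) in the 636 spots with 1000 to under 5000 UMIs and to 1786 (1769 to 1803) in the 375 spots under 1000, above the 1110 of the deep spots. Nuclear-encoded members summed to 388 (384 to 391) and 375 (367 to 383), below the 437 of the deep spots. The number of mitochondrial per nuclear-encoded UMI was 2.54 in deep spots, 3.98 in the middle class and 4.76 in the shallowest. In absolute terms a spot under 1000 UMIs held 113 mitochondrial and 23.7 nuclear-encoded member UMIs, against 1792 and 705 in a deep spot of the same slice. The 28 spots of 1000 to under 5000 UMIs at rest had an even higher mitochondrial share, 2152 (2125 to 2178), and a lower nuclear-encoded one, 348 (338 to 359), so depth moved with both shares at rest too, and its part in the difference was not tested. The shallowest spots at 2 dpi carried 52.7 UMIs of neurons markers per 10000, against 40.6 in the deep ones. Single markers were set only against deep spots at rest, so which markers carried this higher sum at 2 dpi was not examined. Of the 5 with at least 50 UMIs in both, 4 were lower in the shallowest spots than in deep spots at rest (median log2 ratio -0.68). Set against the same deep spots at rest, 7 of 8 were lower in the middle class (median -1.05) and 7 of 8 in deep spots at 2 dpi (median -0.69).

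**Figure D5:**
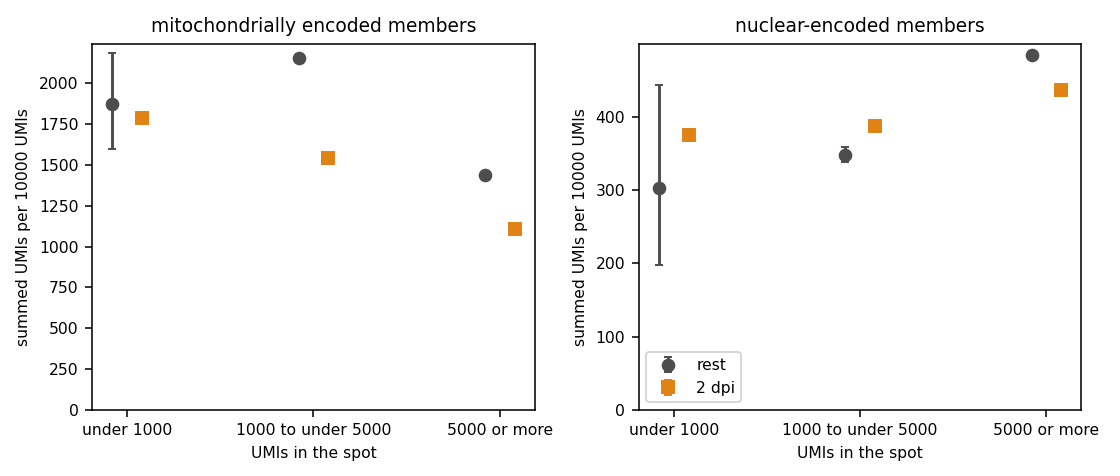
Summed UMIs of the mitochondrially encoded (left) and nuclear-encoded (right) members per 10000 UMIs, by the total UMIs of a spot, at rest (grey circles) and 2 dpi (orange squares). Bars are exact 95% Poisson intervals; only 3 spots at rest were under 1000 UMIs. At 2 dpi the mitochondrial share rises from 1110 to 1786 towards shallow spots while the nuclear-encoded share falls from 437 to 375.

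Related genes outside the group were taken from lists of the same pathways. The counts below stand beside the 28.3% of all genes tested that were lower in Col1a1-high spots and the 28.8% that were higher. Of 17 genes of glycolysis 13 were lower and 1 higher in Col1a1-high spots, with a median log2 fold change of -0.78. Hk2, a hexokinase of low-oxygen and activated cells, was the one that rose (log2 fold change 2.13, SE 0.37), and Eno2, the neuronal enolase, had the largest fall (-2.28, SE 0.20). Of 13 genes of the TCA cycle 10 were lower and 1, Suclg2, was higher, with a median of -0.72. Of 29 assembly factors and carriers outside the symbol rule 11 were lower and 2 higher. Cycs, the cytochrome c between complexes III and IV, fell by 1.00 (SE 0.14) and Slc25a4, an ADP/ATP carrier, by 0.82 (SE 0.10). Etfa and Etfb, which bring electrons from fatty acid oxidation, rose by 0.59 and 0.76 (SE 0.13 and 0.10). On the same list Slc25a5 (log2 fold change -0.17, SE 0.10) and Etfdh (0.36, SE 0.18) were not called. Among 11 tested regulators of mitochondrial biogenesis, 2 were lower and 2 higher. Ppargc1a, a coactivator of this programme, fell by 1.83 (SE 0.17) and Esrra by 0.48 (SE 0.13), whereas Nrf1 and Gabpa, whose DNA words were searched above, had log2 fold changes of 0.74 and 0.56 (SE 0.18 for both).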

How the data were processed

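Reads of 4 Visium capture areas were aligned by the authors to mm10 with Space Ranger 2.0.0, and raw UMI counts per gene and spot were deposited without normalization. Spots over tissue were joined into 2 connected pieces per area, each taken as 1 slice and 1 mouse. Counts were summed per slice or spot class and tested with edgeR 4.0.16 in R 4.3.3 (filterByExpr, TMM, quasi-likelihood F test, Benjamini-Hochberg over all genes tested, threshold 0.05), with the slice as a block between spot classes. A gene's standard error was taken from its log2 fold change and F statistic (change over root F). The edgeR steps were run on simulated counts with known changes, drawn with no slice effect other than depth. That run checks the code and does not measure error rates in these data. DESeq2 1.42.0 was an alternative. P-values rest on 4 slices, and which spots form 1 mouse's slice was read from the tissue pieces. No column was left unmatched. Other alternatives were no TMM, no filter, no block, no mitochondrial genes, a Col1a1 minimum of 10 per 10000, spots of at least 5000 UMIs, spots of like neuron marker level, each slice left out and, for 2 dpi, other depths. Named were the mitochondrial members, core subunits, isoform pairs and, per comparison, up to 5 nuclear-encoded members in each direction with the largest change. Cox6b1, Ndufaf8, Sdhd and the other genes not called that are named, as well as genes outside the group, were chosen after their values were seen. Members and lists were chosen with earlier results of these data known. Gene positions are from GENCODE M21, matched for all 107 members, of which 19 overlap another gene on the same strand; promoters are from RefSeq. The values of 1 core subunit are not reported here.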

Additional observations from a re-analysis of the deposited data

How the results depend on the processing

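Of the counts and summed levels, 184 values under alternatives kept their direction and stayed near the value reported, 22 moved and 2 reversed; of the values of named genes 617 kept direction and call, 68 lost their call, 10 gained one and 10 reversed. The cause was not tested unless stated. For Col1a1-high against Col1a1-free spots, 16 nuclear-encoded members were lower at like neuron marker level, where fewer spots enter, and 59 to 69 when each slice was left out. Nuclear-encoded members called higher numbered 2 with DESeq2, without TMM, without the filter, with a Col1a1 minimum of 10 per 10000, in deleter slices alone and with each slice left out (lowest 2, highest 2), and 1 at like neuron marker level or in the 21 dpi slices alone. The mean log2 ratio of mitochondrial members was -0.72 (SD 0.17 over 4 slices) and -0.55 from medians over spots; that of nuclear-encoded members was -0.66 (SD 0.11) and -0.36 at like neuron marker level. For 2 dpi against rest, the log2 ratio of mitochondrial members was -0.37 in spots of at least 5000 UMIs, -0.34 from 10000, -0.31 in all spots and -0.43 without mitochondrial UMIs in the total; against deep spots at rest it reversed to 0.31 under 1000 and 0.10 from 1000 to 5000 UMIs. That of nuclear-encoded members was -0.15, with -0.37 and -0.32 in those shallow classes, -0.17 in all spots and -0.20 without mitochondrial UMIs. Without the filter 1 nuclear-encoded member was lower in deleter slices. Between the spot classes, mt-Atp8 reversed to 0.17 without 21 dpi replicate 2 and 0.19 in 7 dpi slices alone, Cox4i2 to -0.33 at like neuron marker level, Atp5e to 0.0335 there and 0.0310 in 7 dpi slices alone, and Cox7a1 to 0.0026 with DESeq2, 0.0040 without mitochondrial genes, 0.0485 from 5000 UMIs, 0.0708 without 21 dpi replicate 1 and 0.12 in 7 dpi slices alone; with each slice left out, mt-Atp8 ranged from -0.12 to 0.17 and Cox7a1 from -0.0712 to 0.0708, and none of these was called. Over all genes DESeq2 called 314 higher and 84 lower at 7 against 21 dpi (edgeR 2 and 4), 303 and 45 for the change of the class gap with time (451 and 116), and 7 and 5 in deleter slices (0 and 0). Single capture areas, and summed levels at like neuron marker level, were added after seeing the data. Between the spot classes the slice pairs the samples. Without this block 71 nuclear-encoded members were lower and 3 higher. It left 11 mitochondrial members lower, of which 10 were also lower with the block, and mt-Nd3 lost its call. For these alternatives between the spot classes, the share of all genes called is given only at like neuron marker level. The other counts of members therefore have no background here. Whole slices share no replicate numbers that could pair them.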
